A study of Homo sapiens with 6 samples.

Results

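Cancer-testis antigens are proteins made by male germ cells, silent in most adult somatic tissues and switched on again in many tumours, melanoma among them. Most of their genes lie in multicopy families on chromosome X, and in somatic cells methylation of CG pairs in their promoters is known to keep them silent. Fragments of these proteins are presented on MHC class I, which makes them targets of tumour-directed T cells. MAGE proteins, the best known of the class, bind RING-type ubiquitin ligases and steer them to substrates. The type II MAGE genes, the MAGED family included, differ from the rest in being active in many normal tissues.

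The genes described here were the protein-coding rows whose symbol begins with MAGEA, MAGEB, MAGEC, MAGED, XAGE, PAGE, GAGE, SSX and a digit, CTAG, CSAG or SPANX, or is PRAME, CTCFL, CT45A1, CT83, TEX14 or SYCP1. They came to 26 of 15520 protein-coding rows, and of 26748 rows in all. Of the 26, 17 lie on chromosome X. Another 6 are CTAGE genes, autosomal relatives of the cargo receptor gene MIA2 that match through their first letters, and SSX2IP matches in the same way although it encodes a centrosome protein that binds SSX2. GENCODE 29 holds 91 protein-coding genes of these names, and the 65 others, PRAME and SYCP1 among them, were not analysed here.

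RNA was sequenced from M14 cells, an established human melanoma line with no added agent or genetic change named in the labels, to characterise the cells of non-adherent against adherent culture. The 3D libraries (n = 3) came from melanospheres, spheres of cells in non-adherent culture, and the 2D libraries (n = 3) came from adherent culture. The labels give no culture time, and are silent on whether replicates were grown separately, so p-values cover only library-to-library spread, possibly technical in origin. Values are normalised counts, read counts that the authors divided by 1 factor per library, and the libraries held 16567763 to 19954987 reads in genes. A change is the log2 difference, 3D minus 2D, of value + 1, tested with limma over the 15598 genes with a mean of at least 10, and called at a Benjamini-Hochberg adjusted p under 0.05. In bulk RNA, fewer cells that express a gene and less of its RNA per cell cannot be told apart. On the first principal component of all tested genes, the 3D libraries scored 59.3 to 73.9 and 2D replicates 1, 2 and 3 scored -94.7, -84.4 and -24.7, so that the last of these was the adherent library nearest to the spheres. Of melanocyte markers, PMEL averaged 1071 ± 398 in 3D and 434 ± 280 in 2D and MITF 288 ± 19.0 in 3D and 1131 ± 215 in 2D, while MLANA, TYR and SOX10 averaged 0.323 to 8.26 in 3D and 10.2 to 16.1 in 2D (SD, n = 3 each). In 2D replicates 1, 2 and 3 MLANA had 5.72, 7.47 and 17.5, TYR 2.86, 7.47 and 33.9 and SOX10 4.77, 6.41 and 37.0. Much of these 2D means thus came from replicate 3.

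Reads of the 26 genes were concentrated in few of them. MAGED2, XAGE2, SSX2IP and CT83 held 98.9% of the 33009 reads that the 26 genes had over all libraries. Together the 26 genes took 314, 451 and 317 CPM (reads scaled to each library's total) in 3D replicates 1, 2 and 3, against 256, 226 and 301 in 2D replicates 1, 2 and 3. MAGED2 made up 84.0% to 86.9% of these reads in 3D and 49.0% to 64.2% in 2D, and XAGE2 made up 0.591% to 0.787% in 3D and 18.6% to 22.9% in 2D. Thus the 3D libraries carried little XAGE2 within this class, and the 2D libraries carried it as the second most abundant gene.

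The upstream 250 bases of 4 of the X-linked genes are shown because CG pairs are the sites where methylation is known to act on this class; the CG pairs are in capitals, and methylation was not measured here. They are RefSeq sequences (GRCh38.p14), written 5′ to 3′ on the gene's own strand up to the base before the RefSeq start, for XAGE2 at chrX:52368771-52369020 (+ strand), SSX5 at chrX:48196796-48197045 (- strand), MAGED2 at chrX:54807495-54807744 (+ strand) and CT83 at chrX:116462977-116463226 (- strand). The gene coordinates given further on are those of GENCODE 29, whose starts differ: the last 146 bases of the MAGED2 window and 27 of the CT83 window lie inside the GENCODE gene, as do bases of 11 of the 25 windows in all.
XAGE2: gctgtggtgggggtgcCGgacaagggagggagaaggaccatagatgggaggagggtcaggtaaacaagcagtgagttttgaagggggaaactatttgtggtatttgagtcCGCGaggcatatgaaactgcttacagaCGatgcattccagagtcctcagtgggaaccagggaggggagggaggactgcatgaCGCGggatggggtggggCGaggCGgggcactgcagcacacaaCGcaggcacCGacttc
SSX5: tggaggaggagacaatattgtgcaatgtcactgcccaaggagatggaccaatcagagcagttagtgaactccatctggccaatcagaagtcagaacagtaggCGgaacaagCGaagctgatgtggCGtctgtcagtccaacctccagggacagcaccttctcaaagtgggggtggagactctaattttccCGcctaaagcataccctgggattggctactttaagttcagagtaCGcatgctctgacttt
MAGED2: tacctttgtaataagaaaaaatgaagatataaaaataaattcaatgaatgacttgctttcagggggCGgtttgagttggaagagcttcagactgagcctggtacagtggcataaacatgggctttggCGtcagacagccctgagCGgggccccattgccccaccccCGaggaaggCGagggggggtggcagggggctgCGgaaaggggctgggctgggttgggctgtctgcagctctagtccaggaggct
CT83: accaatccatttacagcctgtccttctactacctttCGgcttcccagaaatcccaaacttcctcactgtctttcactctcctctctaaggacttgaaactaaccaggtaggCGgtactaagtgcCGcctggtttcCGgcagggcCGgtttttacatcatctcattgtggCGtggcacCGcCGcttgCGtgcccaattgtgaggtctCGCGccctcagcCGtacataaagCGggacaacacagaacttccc
XAGE2 had 10 CG pairs in this window, SSX5 5, MAGED2 6 and CT83 13, against a median of 11 over 35116 RefSeq promoters cut to the same length. Of the 26 genes 25 had a sequence, TEX14 being the exception, and they had 3 (SSX1) to 26 (SSX2IP) CG pairs, with a median of 14, and 11 of them had fewer than the median of all promoters. The letters TCCCGC, an E2F6-type motif, stood on either strand of 9 of the 25 windows, XAGE2, SSX5 and CT83 included, against 23.5% of all promoters; 4 of the 9 are GAGE genes, which resemble each other. The E-box CACGTG stood in 5 of the 25, all of them CTAGE genes, against 6.34% of all promoters. These are matches of letters only, and the CTAGE genes are near-copies of each other.

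Of the 26 genes, 6 reached the mean of 10 and were tested. In 3D, MAGED2 and SSX5 rose and XAGE2 and SSX2IP fell, while CT83 and TEX14 did not pass. The background was high, since 24.1% of all tested genes were called, 12.5% as higher and 11.6% as lower in 3D. SSX5 passed the minimum mean only through the 3D libraries and so had to differ, which leaves the count of 4 in 6 without weight as a statement on the class. The other 20 genes had means of at most 7.90 and are described by their reads.

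**Figure D1:**
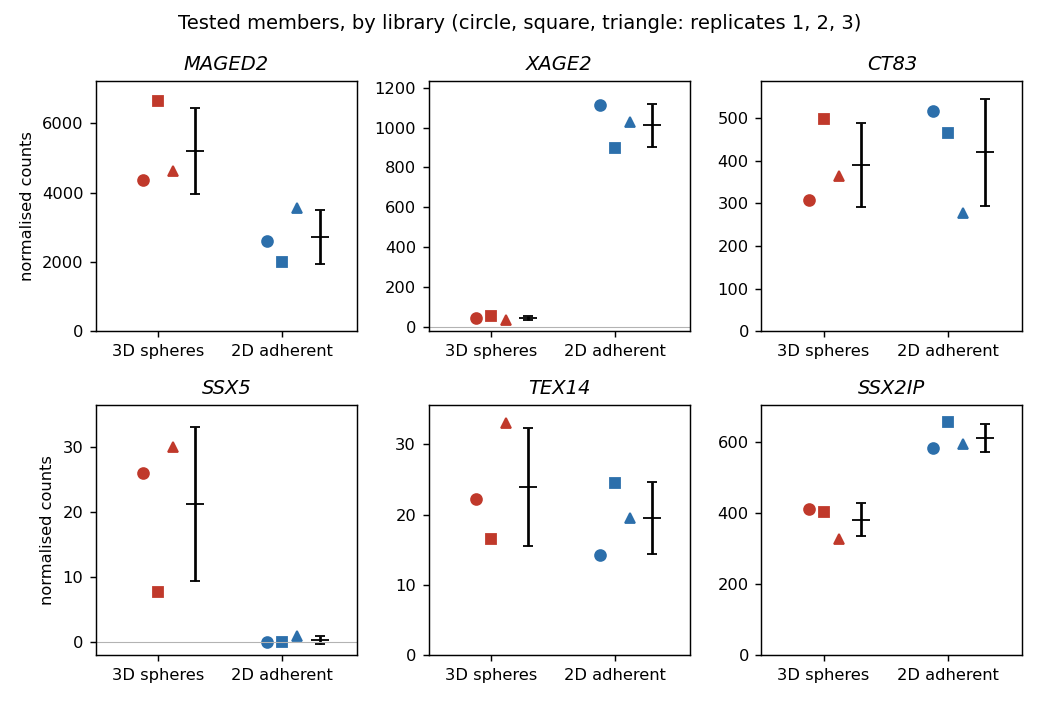
Normalised counts of the 6 tested genes in each library (points; circle, square and triangle are replicates 1, 2 and 3), with mean and SD beside them, 3D spheres in red and 2D adherent culture in blue. XAGE2 lies between 32.0 and 54.3 in 3D and between 898 and 1113 in 2D, SSX5 is near 0 in 2D, and the cultures overlap for CT83 and TEX14.

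XAGE2 (ENSG00000155622, chromosome X, 52369030 to 52375680, + strand, GRCh38) encodes a small antigen of the GAGE-like families. It had 40.8, 54.3 and 32.0 normalised counts in 3D replicates 1, 2 and 3, against 1113, 898 and 1028 in 2D replicates 1, 2 and 3. All 3D libraries were low and all 2D libraries high, with a wide gap between them; 43.1% of all tested genes had cultures that did not overlap. The mean was 42.4 ± 11.2 in 3D and 1013 ± 108 in 2D (SD, n = 3 each), and the change was -4.57 (SE 0.25, 95% interval -5.15 to -3.998; limma, adjusted p = 0.00011), or 23.8-fold lower in 3D. The call held without any single library, with changes of -4.76 to -4.39 and adjusted p of 2.1e-05 to 0.0018. 2D replicate 3, the adherent library nearest to the spheres on the principal component, was at the level of the other 2D libraries for XAGE2. Per kilobase of exon, XAGE2 averaged 68.6 normalised counts in 3D and 1639 in 2D, which placed it above 46.1% of tested genes in 3D and above 97.1% in 2D. None of its 75-base windows occurs in a transcript of another GENCODE 29 gene. That search finds exact matches in annotated transcripts only, so near-copies with mismatches or outside the annotation were not covered.

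MAGED2 (ENSG00000102316, chromosome X, 54807599 to 54816012, + strand), a type II MAGE gene whose loss is known to cause a transient antenatal salt-wasting kidney disorder, was the most abundant of the class. It had 4358, 6637 and 4621 normalised counts in 3D replicates 1, 2 and 3, against 2613, 1996 and 3549 in 2D replicates 1, 2 and 3. The cultures did not overlap, 3D replicate 2 was the highest library, and 2D replicate 3 the nearest of the 2D libraries to the spheres. The mean was 5206 ± 1247 in 3D and 2719 ± 782 in 2D, a change of 0.95 (SE 0.25, 95% interval 0.37 to 1.53; limma, adjusted p = 0.030), or 1.93-fold. That call was lost when any 3D library, 2D replicate 1 or 2D replicate 2 was left out, with changes of 0.75 to 1.07, and held without 2D replicate 3, where the change was 1.16 (adjusted p = 0.0028). Without 3D replicate 2 and 2D replicate 3 together the change was 0.97 (limma, adjusted p = 0.00022). Those were the libraries least like the others of their culture, and 9041 of all 15598 tested genes were called without them. The smaller p therefore adds no support for MAGED2. Per kilobase of exon MAGED2 averaged 1771 normalised counts in 3D and 925 in 2D, above 97.7% and 94.1% of tested genes. An intron of MAGED2 holds the small nucleolar RNA gene SNORA11, which averaged 5.87 in 3D and 1.07 in 2D and so adds little to the reads of the locus.

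SSX5 (ENSG00000165583, chromosome X, 48186220 to 48196763, - strand) belongs to the SSX family of transcriptional repressors, whose members SSX1 and SSX2 are known from the fusions of synovial sarcoma. It had 26.0, 7.76 and 29.9 normalised counts in 3D replicates 1, 2 and 3, against 0, 0 and 1.03 in 2D replicates 1, 2 and 3. All 3D libraries were above all 2D libraries, and 3D replicate 2 was well below the other spheres. The 3D libraries held 65 reads of it and the 2D libraries 1 read, giving a ratio of 62.5 with an exact 95% binomial interval of 10.8 to 2505 that covers counting error only. Without 2D replicate 3, which held that 1 read, SSX5 in 3D was 13.98-fold above the level that 3 reads over the 2D culture would give. The ratio was 40.3 without 2D replicate 1. The fitted change was 3.94 (SE 0.72, 95% interval 2.31 to 5.57; limma, adjusted p = 0.0077), but its size followed the pseudocount, from 1.51 with 10 to 6.35 with 0.1. The call was lost without 3D replicate 3 (3.60, adjusted p = 0.052) and held without each of the other libraries, with changes up to 4.51. Of its windows, 4.25% occur in transcripts of another gene.

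CT83 (ENSG00000204019, chromosome X, 116461682 to 116463003, - strand) encodes KK-LC-1, an antigen first described in lung cancer. It had 307, 498 and 363 normalised counts in 3D replicates 1, 2 and 3, against 517, 465 and 278 in 2D replicates 1, 2 and 3. The cultures overlapped throughout, and the lowest value of all was that of 2D replicate 3. The mean was 389.6 ± 98.2 in 3D and 419.9 ± 126 in 2D, a difference of -0.09 (95% interval -0.75 to 0.57; limma, adjusted p = 0.85). Without 3D replicate 2 and 2D replicate 3 together, the difference was -0.55 (limma, adjusted p = 0.012), in a setting where 9041 of all 15598 tested genes were called. The value of CT83 thus turned on those libraries. Per kilobase of exon it averaged 711 normalised counts in 3D and 766 in 2D, above 93.1% and 92.7% of tested genes, and none of its windows is shared with another gene.

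TEX14, on chromosome 17, is needed for the bridges that join dividing germ cells. It had 22.3, 16.5 and 33.0 normalised counts in 3D replicates 1, 2 and 3, against 14.3, 24.6 and 19.5 in 2D replicates 1, 2 and 3. The cultures overlapped, and the difference was 0.26 (95% interval -0.72 to 1.25; limma, adjusted p = 0.68). Its level per kilobase, 4.49 normalised counts in 3D and 3.65 in 2D, lay in the lowest part of the tested genes; it overlaps IGBP1C on the same strand, so its count is uncertain.

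SSX2IP, on chromosome 1, anchors centrosomes and spindles and is no germline antigen itself. It had 412, 402 and 327 normalised counts in 3D replicates 1, 2 and 3, against 583, 654 and 594 in 2D replicates 1, 2 and 3. The cultures did not overlap, and 3D replicate 3 was the lowest library. The mean was 380.5 ± 46.4 in 3D and 611 ± 38.3 in 2D, a change of -0.69 (SE 0.18; limma, adjusted p = 0.029), or 1.61-fold lower. Leaving out any 1 of 4 libraries (3D replicates 1 and 3, 2D replicates 1 and 2) ended the call (adjusted p of up to 0.12, changes of -0.75 to -0.58), as did libraries rescaled to equal totals (-0.55, adjusted p = 0.064).

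**Figure D2:**
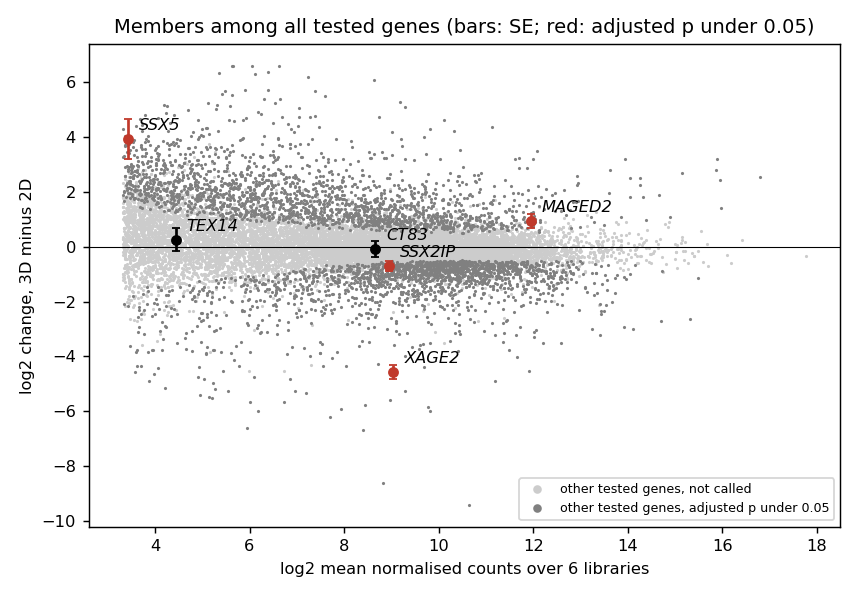
Log2 change (3D minus 2D, vertical axis) against the log2 mean of normalised counts (horizontal axis) for all 15598 tested genes in grey, with the 6 tested members named (bars are SE, red where adjusted p is under 0.05). XAGE2 stands at -4.57, far below most genes of its level, and SSX5 at 3.94 lies at the low end of the tested range.

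**Figure D3:**
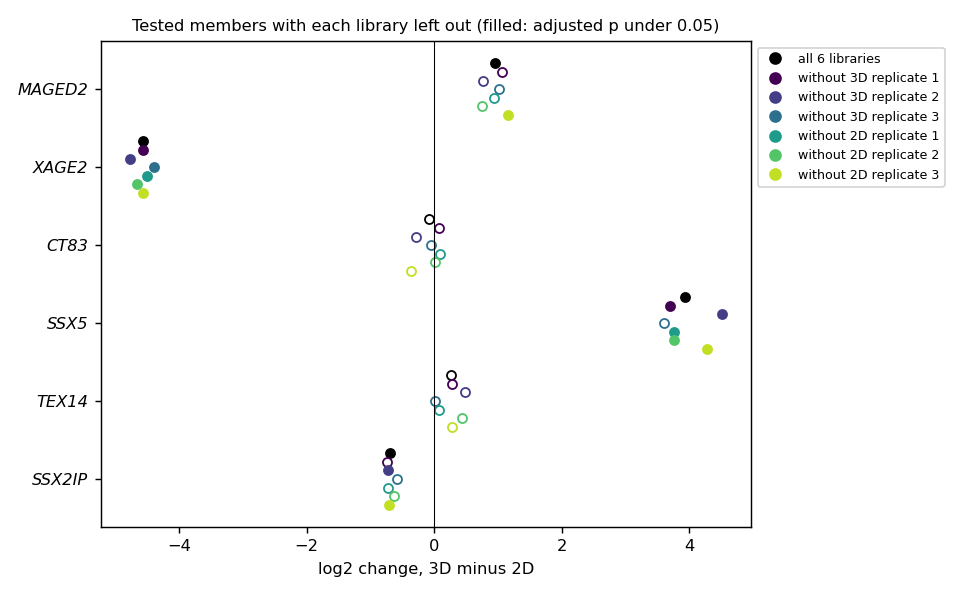
Log2 change (3D minus 2D) of the 6 tested genes with all libraries and with each library left out in turn; filled points have an adjusted p under 0.05. The 7 points of XAGE2 are all filled, while MAGED2 is filled only with all libraries and without 2D replicate 3.

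Below the minimum mean, 20 genes remained, 17 of them with at most 10 reads over all libraries. Of the 20, 9 had reads in 2D and none in 3D, 4 had reads in 3D and none in 2D, and 7 had reads in both. No share over all genes of such low level is given beside these counts, so they carry no weight as a statement on the class. Over the whole table, the 3D libraries had reads in 22458 to 23572 genes and the 2D libraries in 20841 to 21772. CTAGE4 was the highest of them, at a mean of 7.90, and MAGED1 followed at 6.11.

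The 4 MAGEA genes, the classical melanoma antigens whose proteins bind the ligase TRIM28 in the case of MAGEA3 and MAGEA6, had no read in any 3D library. In 2D the family had 4, 8 and 15 reads in replicates 1, 2 and 3. The 3D culture was set at 3 reads, the limit that a count of 0 allows, and the 2D reads were taken as exact. On that basis the family was 9.36-fold lower in 3D, and 6.2-fold lower without 2D replicate 3. Without any 1 of the 3D libraries it was 6.08- to 6.42-fold lower. These figures leave out the counting error of the 2D reads, and a left-out 3D library lowers them by itself. MAGEA12 had 2, 5 and 4 of these reads, MAGEA3 1, 1 and 7, MAGEA11 1, 1 and 3, and MAGEA6 0, 1 and 1 in 2D replicates 1, 2 and 3. MAGEA12 was thus spread over all adherent libraries, whereas most MAGEA3 reads came from 2D replicate 3. Since 42.1% of the windows of MAGEA3 and 39.8% of those of MAGEA6 occur in another gene, chiefly in each other, the counts of these genes are uncertain.

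MAGED1, a type II MAGE gene that binds the ligase PJA1, had 0 reads in each 3D library, against 8, 7 and 21 reads in 2D replicates 1, 2 and 3. All its reads were thus from adherent cells, most of them from 2D replicate 3. Against 3 reads over the 3D culture, and with the 2D reads taken as exact, MAGED1 was 12.5-fold lower in 3D. It was 7.75-fold lower without 2D replicate 3 and 8.11- to 8.56-fold lower without any 1 of the 3D libraries. The 2 MAGED genes were thus on opposite sides of the comparison. When the minimum mean was dropped, limma called MAGED1 (adjusted p = 0.0043) and MAGEA12 (adjusted p = 0.024) as lower in 3D beside the 4 genes above, and no other of the 20. In that setting 3988 of all 26748 rows were called. Neither gene had a read in any 3D library, so their values had no spread within 3D and these p-values add little. None of the windows of MAGED1 is shared, and 4.95% of those of MAGEA12 are.

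GAGE and CSAG genes, antigens of the X chromosome's repeat clusters, had few reads. The 4 GAGE genes summed to 0, 0 and 1 reads in 3D replicates 1, 2 and 3, against 2, 2 and 10 in 2D replicates 1, 2 and 3. The 10 reads of 2D replicate 3 were 5 of GAGE1 and 5 of GAGE2A, overlapping genes on the same strand. Their counts were identical in every library, so their reads cannot be told apart. The ratio of 2D to 3D reads was 14.6 with an interval of 2.22 to 616, but 9.36 (1.30 to 410.4) with GAGE1 and GAGE2A counted once and 6.2 (0.614 to 305) without 2D replicate 3, an interval that no longer separates the cultures. Leaving out 3D replicate 1 gave 9.47 and 3D replicate 2 gave 9.68, while 3D replicate 3 held the only 3D read. Further, 12.1% (GAGE1) to 87.1% (GAGE13) of the windows of these genes occur elsewhere. The CSAG genes, first found in chondrosarcoma, summed to 0, 2 and 0 reads in 3D and 2, 2 and 3 in 2D, a 2D to 3D ratio of 3.64 (interval 0.693 to 35.9) that does not separate the cultures. MAGEB6 had 1 read in 3D and 2 in 2D.

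CTCFL, the testis paralogue of the insulator protein CTCF known as BORIS, had 6, 1 and 3 reads in 3D replicates 1, 2 and 3 and none in any 2D library. Against 3 reads over the 2D culture it was 3.20-fold higher in 3D, 1.97-fold without 3D replicate 1 and 2.07-fold without 2D replicate 1. These figures take the 3D reads, 10 in all and 4 without 3D replicate 1, as exact, so they are not full lower bounds. It was not called without the minimum mean (limma, adjusted p = 0.053). SSX1, on chromosome X as SSX5 is, had 3 reads in 3D replicate 1 and none in the other libraries.

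The CTAGE genes summed to 14, 18 and 5 reads in 3D replicates 1, 2 and 3 and to 5, 13 and 6 in 2D replicates 1, 2 and 3. The cultures overlapped, and CTAGE4 held 28 of the 37 reads in 3D and 20 of the 24 in 2D. Of the windows of CTAGE4, 97.2% occur in other genes, chiefly CTAGE8, so these reads cannot be assigned to a single copy with certainty.

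**Figure D4:**
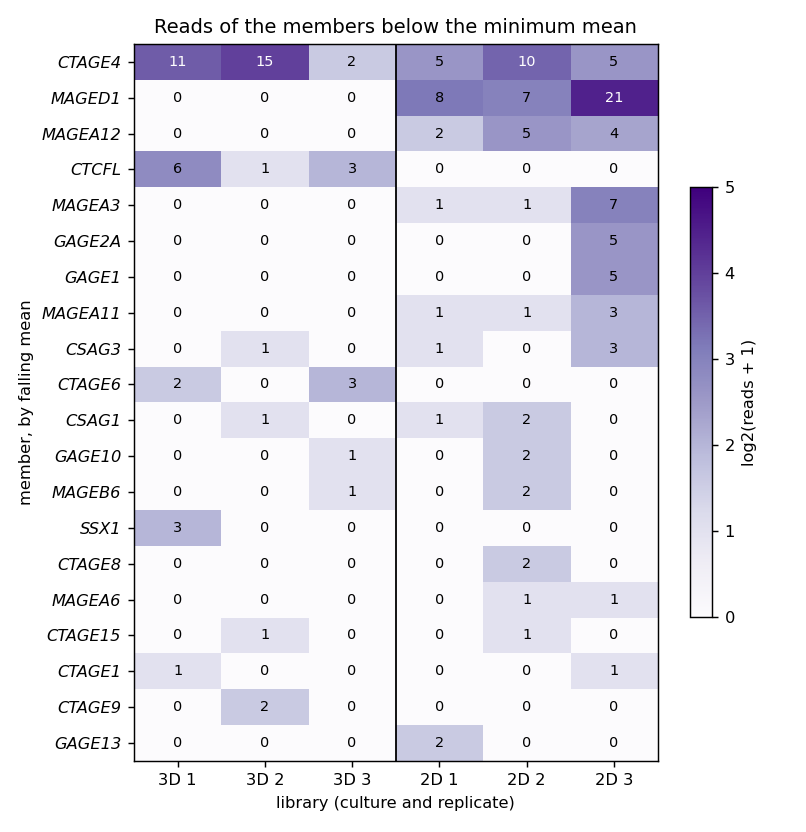
Recovered whole reads of the 20 genes below the minimum mean (rows, by falling mean) in each library (columns, 3D left of 2D); the shade is log2(reads + 1) and the number is the read count. The 4 MAGEA genes and MAGED1 have reads in 2D columns only, CTCFL in 3D columns only, and the GAGE1 and GAGE2A reads stand in 2D replicate 3 alone.

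Genes known to act with this class were counted by list, beside the background of 24.1% called and a median change of -0.02 over all tested genes. That background is for adjusted p. Counts at an unadjusted p under 0.05, here and below, have no share over all genes beside them and carry no weight. Of 17 tested genes that write, read or remove CG methylation, 1 passed the test: the methyl-CG reader MBD2 fell (-0.62, adjusted p = 0.032; median of the list -0.11), a call that ended without any 1 of the same 4 libraries as for SSX2IP (3D replicates 1 and 3, 2D replicates 1 and 2). With equal totals MBD2 was not called either (-0.49, adjusted p = 0.066), and the list held 1 higher and 0 lower genes with a median of 0.03, against 0.11 for all genes. The maintenance methyltransferase DNMT1 averaged 3605 ± 726 in 3D and 4010.3 ± 400.0 in 2D and did not pass (adjusted p = 0.55). Of 20 chromatin repressors known to silence germline genes, 1 passed: the Polycomb subunit SUZ12 fell (-0.79, adjusted p = 0.010; 0.060 without 3D replicate 3; median -0.14). Among 7 tested MAGE partners and substrates 2 fell, the deubiquitinase USP7 among them (-0.74, adjusted p = 0.014), but USP7 was not called without any 1 of these 4 libraries (adjusted p of up to 0.066). TRIM28, the ligase of MAGEA3, was in the lists of repressors and of partners and did not pass (11490.4 ± 816 in 3D, 14125 ± 1842 in 2D, adjusted p = 0.27). The other MAGE homology domain genes with enough reads, NSMCE3 and MAGEF1, gave no call by limma, edgeR or DESeq2. NSMCE3 was lower at an unadjusted p under 0.05 (limma), with 9.96 ± 3.51 in 3D and 23.5 ± 7.90 in 2D. It passed the minimum mean only through the 2D libraries, so that p carries no weight.

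CTCF, the somatic paralogue of CTCFL, and cohesin genes fell in 8 of 10 cases and rose in none, with a median change of -0.68 (limma). At an unadjusted p under 0.05, 0 were higher. Of the 10, edgeR called 6 and DESeq2 8, against 3657 and 4724 of all 15598 tested genes. RAD21 fell by 1.28 (adjusted p = 0.0026), STAG1 by 1.04 and PDS5A by 0.98 on the log2 scale, each also without any single library, though 10.2% of the windows of RAD21 and 19.4% of those of STAG1 occur in other genes, which leaves their counts uncertain too; 5 of 10 passed with libraries rescaled to equal totals, and 3 without any 1 of the 4 libraries 3D replicates 1 and 3 and 2D replicates 1 and 2. Of 7 tested meiosis genes 3 rose: STAG3, the meiotic cohesin subunit (2.22, adjusted p = 0.0039), the synaptonemal complex gene SYCE1 (1.63, adjusted p = 0.031) and the chromosome axis gene HORMAD1 (0.90, adjusted p = 0.028). At an unadjusted p under 0.05 (limma), a threshold with no share over all genes beside it, 4 of the 7 were higher and 3 lower in 3D. The lower ones were SMC1B (-1.83), DMC1 (-1.21) and SYCE2 (-0.90), so the list went both ways. STAG3 had 103, 69.8 and 94.97 normalised counts in 3D replicates 1, 2 and 3, against 16.2, 22.4 and 16.4 in 2D replicates 1, 2 and 3, but 24.0% of the 75-base windows of STAG3 and 36.3% of those of SYCE1 occur in other genes, so both are uncertain. SYCE1, at 25.6 ± 7.35 in 3D and 7.49 ± 1.55 in 2D, passed the minimum mean only through the 3D libraries. SYCE1 was not called without any 1 of these 4 libraries (adjusted p of up to 0.14), nor was HORMAD1 without these or 3D replicate 2 (up to 0.12).

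Of 19 tested cancer-testis genes outside the chosen families, 1 rose (HORMAD1, again) and 7 fell, with a median of -0.82. The largest falls were those of KNL1 (-1.60), TTK (-1.41) and NUF2 (-1.34), kinetochore and spindle checkpoint genes that dividing somatic cells use too. Of 14 tested genes of MHC class I presentation, NLRC5, which drives class I transcription (0.88, adjusted p = 0.029), and B2M, the light chain (0.55, adjusted p = 0.040), rose, and the peptide trimming enzyme ERAP1 fell (-0.97, adjusted p = 0.0073). The calls of NLRC5 and B2M ended without any 1 of 3D replicates 1 and 3 and 2D replicates 1 and 2, and that of B2M also without 3D replicate 2. Among 13 partners of PRAME and retinoid-responsive genes, the retinol transporter STRA6 (2.79) and the retinoic acid carrier CRABP2 (1.18) rose and the retinaldehyde reductase DHRS3 (-6.21) fell, with a median of -0.02. DHRS3, at 3.52 ± 2.40 in 3D and 411 ± 302 in 2D, passed the minimum mean only through the 2D libraries and so had to differ. CRABP2 was not called without any 1 of the same 4 libraries (adjusted p of up to 0.089).

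Markers of other cells are given beside these values. Of 12 male germ cell markers 5 had a row and 2 were tested, with no call by limma, edgeR or DESeq2 (1 was lower at an unadjusted p under 0.05). DDX4, the defining one, had 0.619 ± 1.07 in 3D and 0.356 ± 0.616 in 2D, and the summed level of the list was 564 to 616 in 3D and 769 to 1085 in 2D, most of it TDRD9. Of 5 tested melanocyte genes MITF (-1.95), the lineage's transcription factor, and the pigment enzyme gene DCT fell, and the summed level was 1706 to 2205 in 3D and 2406 to 2690 in 2D. Of 5 tested fibroblast and endothelial genes PECAM1, an endothelial adhesion molecule, rose, and the other 4 did not pass (limma). The endothelial gene CDH5 averaged 20.8 ± 1.18 in 3D and 103 ± 144 in 2D, with 268 in 2D replicate 3. VWF, also endothelial, averaged 17.7 ± 7.43 in 3D and 31.0 ± 8.41 in 2D. COL1A1 and PDGFRB had higher means in 3D, so the list went both ways. Its sum was 4668 to 5931 in 3D and 1654, 2119 and 5117 in 2D replicates 1, 2 and 3, most of it COL1A1. The 3D libraries held 2 reads of DCT and the 2D libraries 207, giving a 2D to 3D ratio of 108 (exact 95% binomial interval 29.4 to 895), and its fitted change was -2.79 with a pseudocount of 10 and -7.86 with 0.1. PECAM1 had 359 reads in 3D and 9 in 2D, with fitted changes of 3.32 and 7.97 at these pseudocounts. Each passed the minimum mean only through the culture where it was high and so had to differ. The part of these markers in the changes of the antigens was not tested.

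**Figure D5:**
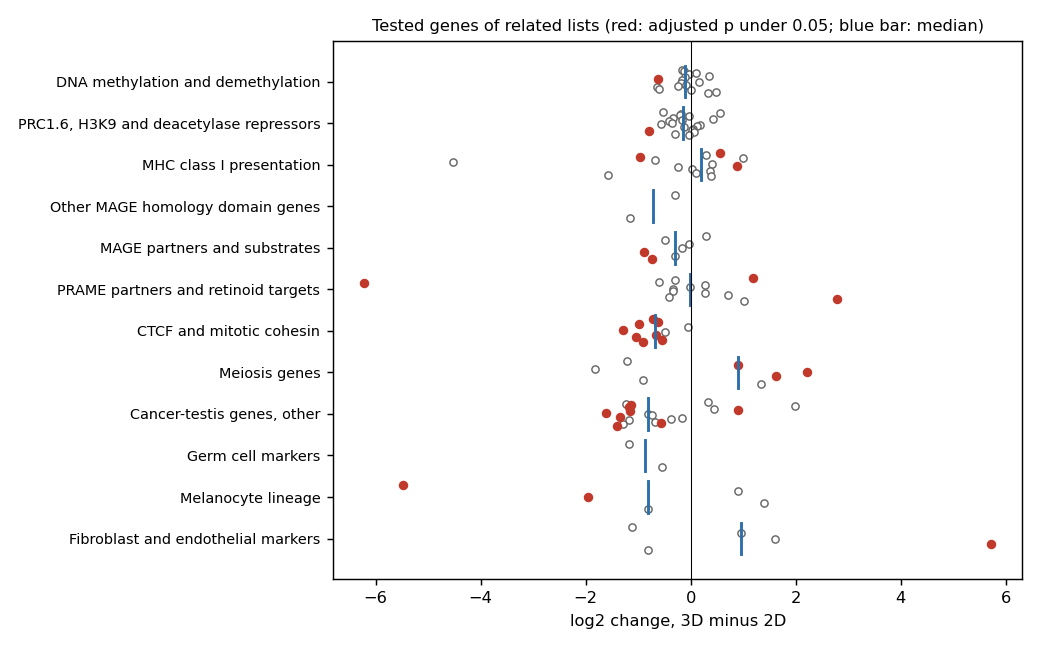
Log2 change (3D minus 2D) of each tested gene of the 12 related lists (points; red where adjusted p is under 0.05) with each list's median as a blue bar. Most genes of the methylation and repressor lists lie near 0, the cohesin genes lie below it, and the meiosis list has 3 red points above it and open points on both sides.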

How the data were processed

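The authors deposited a normalised signal for each gene; the values show read counts scaled by 1 factor in each library. In every library 100% of values were whole multiples of 1 step within a tolerance of 0.01 of a read, which gave back whole reads. Per the submitters' processing notes, the tools were DESeq2, featureCounts 1.5.0 and HISAT2 and the build GRCh38 (hg38); how multi-mapping reads were treated, and which annotation was counted, is not given in the sources used. The TruSeq kit (v2) named in the labels' protocols does not mark strand. Symbols were found for 26506 of 26748 rows in a name table and otherwise taken from GENCODE 29, which also gave biotypes, coordinates and exon lengths for 26702 rows. The 6 empty columns were not used.

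Cultures were compared with limma 3.58.1 under R 4.3.3, taking log2(value + 1) for genes with a mean of at least 10, with a mean-variance trend and culture as sole term, two-sided, Benjamini-Hochberg over all 15598 genes at 0.05. The change of low genes is understated on this scale. For a culture with no reads, a bound against 3 reads over that culture is given. It takes the other culture's reads as exact, so it is not a full lower limit. With 1 to 3 reads, a ratio with an exact 95% binomial interval is given. Such intervals cover counting error only, and the bounds only that of the culture with no reads. Shared windows are 75-base windows of a gene's transcripts found on either strand in another GENCODE 29 gene (Python 3.11.15). Alternatives were pseudocounts of 0.1 and 10, no minimum and a minimum of 50, TMM, equal totals, a replicate block, edgeR 4.0.16 and DESeq2 1.42.0 on the whole reads, stricter thresholds and left-out libraries. The workflow was tested on simulated counts. Every tested member may be named, and of each of 12 lists the 3 most changed called genes per direction, plus defining markers of melanocytes and germ cells. DNMT1, TRIM28, NSMCE3, MAGEF1, TDRD9, CDH5, VWF, PDGFRB, COL1A1, SMC1B, DMC1 and SYCE2 were named after their values were seen. The genes, lists and alternatives were chosen with earlier results of these data known. The motifs, windows, neighbours, summed levels and the values by library of TEX14 and of genes under the minimum, and read bounds and ratios without single libraries, were added after the values were seen. Some genes of the lists are not reported here.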

Additional observations from a re-analysis of the deposited data

How the results depend on the processing

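Of the 26 genes, 4 were called with all libraries; 2 were called at an adjusted p under 0.01 and 2 with a change of at least 1 (XAGE2 and SSX5), and 1 to 4 with a library left out. Over all 15598 tested genes 3766 were called, 1121 at an adjusted p under 0.01 and 2627 with a change of at least 1. Without the pair 3D replicate 2 and 2D replicate 3 the count was 9041, and with a single library left out it was 1190 to 7111. CT83 changed sign without being called with equal totals (0.045); leaving out single libraries gave -0.36 to 0.086, above 0 without 3D replicate 1 (0.069) or either of 2D replicates 1 (0.086) and 2 (0.011). With equal totals the median change of all genes moved from -0.02 to 0.11. The cause of these shifts was not tested. The correlations of deviations gave no sign that the replicate numbers pair the libraries. They were -0.08, -0.14 and 0.04 for numbers 1, 2 and 3, and -0.10 to 0.18 between unlike numbers. Such correlations cannot show that no libraries were handled together. With the number as a replicate block 3222 genes and 3 of the members were called, SSX2IP being lost (limma, adjusted p = 0.061). Under the block the methylation list gave 0 calls, cohesin 5, and fibroblast and endothelial markers 2. Without that pair, CT83 was called (-0.55), and list calls numbered 5 (methylation), 7 (repressors), 8 (MHC), 2 (other MAGE), 10 (PRAME list), 7 (meiosis), 13 (other cancer-testis genes), 1 (germ cell), 4 (melanocyte) and 3 (fibroblast and endothelial). At an adjusted p under 0.01 they numbered 0, 0, 1 and 1 for methylation, repressors, MHC and MAGE partners, 3 for cohesin, 1 for meiosis and 4 for other cancer-testis genes. With a change of at least 1 they were 0 for methylation, repressors, MHC and MAGE partners and 2 for cohesin. DESeq2 called 5 each for MHC, the PRAME list and meiosis, 4 for melanocyte and 2 for fibroblast and endothelial genes. Over all 15598 tested genes it called 4724. Equal totals gave 5 for cohesin and 2 for fibroblast and endothelial genes, against 3645 over all tested genes. The melanocyte list gave 5 with no minimum, where 3988 of 26748 rows were called. It gave 1 with a minimum of 50, where 2987 of 12370 genes were called. With a library left out the ranges were 0 to 4 (methylation), 0 to 6 (repressors), 1 to 7 (MHC), 0 to 1 (other MAGE), 1 to 3 (MAGE partners), 2 to 7 (PRAME list), 3 to 8 (cohesin), 1 to 6 (meiosis), 5 to 10 (other cancer-testis genes), 2 to 4 (melanocyte) and 1 to 3 (fibroblast and endothelial), with the highest count without 2D replicate 3 in each. Depth limits the 20 genes under the minimum mean, most of which had too few reads to compare the cultures singly.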

Other observations

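Genes beside the tested members on the chromosome were examined after the values were seen. Of the 24 tested protein-coding neighbours, 2 on each side of each of the 6 members, 2 were called (limma, adjusted p under 0.05), against 24.1% of all tested genes. Near SSX5, the zinc finger gene ZNF182, 182242 bases away, averaged 263 ± 19.2 normalised counts in 3D and 666 ± 262 in 2D, a change of -1.25 (limma, adjusted p = 0.025), opposite in direction to SSX5. Near MAGED2, FGD1, an exchange factor for the GTPase CDC42 that lies 311433 bases away, averaged 1742 ± 177 in 3D and 2690 ± 507 in 2D, a change of -0.61 (limma, adjusted p = 0.044), opposite in direction to MAGED2. Each call was lost on leaving out some single libraries (adjusted p of up to 0.098 for ZNF182 and 0.14 for FGD1). On the far sides of XAGE2 the nearest tested genes were FAM156B, 515626 bases away, with 25.9 ± 5.19 in 3D and 8.31 ± 4.46 in 2D (limma, adjusted p = 0.054), and the germline-associated cyclin gene CCNB3, 2017120 bases away, with 46.4 ± 10.2 in 3D and 52.0 ± 8.74 in 2D (limma, adjusted p = 0.73). FAM156B passed the minimum mean only through the 3D libraries. SLC6A14, an amino acid transporter gene that ends 224 bases from CT83 on the other strand, averaged 89.0 ± 15.8 in 3D and 61.8 ± 21.1 in 2D (limma, adjusted p = 0.25). Without strand in the library, reads past the ends of these facing genes cannot be told apart.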
